A study of Mus musculus with 6 samples.

Results

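Immunoglobulin and plasma cell genes were followed in whole liver of p75NTR KO and wild-type (WT) mice through 10 genes chosen by name, of 49671 genes in the count table. The share of antibody RNA held by IgG genes was higher, and that of IgM lower, in each KO liver than in each WT liver, while the total amount overlapped. The 10 genes are the heavy chain constant genes Ighm, Igha, Ighg1, Ighg2b, Ighg2c and Ighg3, the kappa light chain constant gene Igkc, and Jchain, Mzb1 and Cd79a. All 10 were found by Ensembl gene ID in the GENCODE mouse annotation of GRCm38, and all 10 passed the filter on low counts.

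The study sequenced polyadenylated RNA from bulk liver of 3 p75NTR KO mice (replicates 1, 2 and 4) and 3 WT mice (replicates 1, 2 and 3). The KO mice were homozygous for a targeted allele of Ngfr, the gene of the p75 neurotrophin receptor, and the labels give 1 strain for both groups, B6.1129S4-Ngfr/J. All mice were 6 months old and housed under standard conditions without further treatment. The allele is carried in every cell, so lymphocytes and hepatocytes of the KO mice are equally without the intact gene. The labels do not say whether KO and WT mice were littermates, and each replicate number stands for 1 library, so p-values measure the spread between these libraries.

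B lymphocytes first make IgM and IgD, from the constant genes Ighm and Ighd that lie closest to the rearranged variable segment. After activation a B cell can switch class by deleting the DNA between, so that the same variable segment is joined to a gamma, epsilon or alpha constant gene further along the chromosome. Plasma cells are the end stage of this lineage and secrete antibody at a very high rate. The adult liver holds B cells and some plasma cells among its resident and passing leukocytes, and its hepatocytes and sinusoidal endothelium bind and transport antibody made elsewhere.

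The gamma genes code for the IgG subclasses, and these differ most in the hinge, the flexible link between the antigen-binding arms and the tail. Their hinge exons are shown because the results turn on which of these genes the reads came from. They were read from the GENCODE M21 transcripts on the minus strand of GRCm38, 5′ to 3′ in coding direction, and the capitals mark in-frame cysteine codons (TGT or TGC), the residues that can join the chains by disulfide bonds.
Ighg3: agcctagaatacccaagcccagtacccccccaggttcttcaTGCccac
Ighg1: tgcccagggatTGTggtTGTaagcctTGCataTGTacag
Ighg2b: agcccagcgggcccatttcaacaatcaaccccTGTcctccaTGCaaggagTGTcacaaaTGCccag
Ighg2c: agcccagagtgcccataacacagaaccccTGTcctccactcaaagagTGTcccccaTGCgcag

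These exons lie on chromosome 12, at chr12:113360529-113360576 for Ighg3, chr12:113329844-113329882 for Ighg1, chr12:113307261-113307326 for Ighg2b and chr12:113288263-113288325 for Ighg2c. The Ighg2b and Ighg1 hinges hold 4 cysteine codons each, that of Ighg2c holds 3 and that of Ighg3 holds 1. Outside the hinge the genes are closer. The first constant exon is 291 bases long in all 4, and its identity was 87.6% between Ighg2b and Ighg2c, 88.3% between Ighg1 and Ighg2b and 78.7% between Ighg3 and Ighg2b. Most reads of 75 bases are long enough to separate them. Of the 2603 windows of that length in Ighg2b transcripts, 20 also occurred in Ighg2c or Ighg3, as did 6 of 1251 windows of Ighg2c with Ighg2b, 14 of 2438 of Ighg3 and 0 of 2517 of Ighg1. The reference genome is that of C57BL/6, which carries Ighg2c. Some other inbred strains carry the allelic form Ighg2a in its place, and which form these mice carried was not tested.

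The libraries held 29784429 to 32664149 counts in KO and 27107209 to 31412855 in WT. Ngfr had 53, 27 and 47 counts in KO replicates 1, 2 and 4, against 133, 144 and 78 in WT replicates 1 to 3, so reads of the targeted gene were fewer in each KO library but not absent. KO replicate 4 stood apart. It held 4712 counts of 4 Y-linked genes and 16 of Xist, whereas the other 5 libraries held 0 to 2 and 6599 to 9554, and the labels do not give sex. The fold changes of the 10 genes are given with and without it. Liver markers were high in every library. The hepatocyte products Alb and Apoa1 had 84274 ± 8808 and 10328 ± 2446 CPM (counts scaled to library size) in KO, against 94237 ± 7699 and 9014 ± 685 CPM in WT (SD, n = 3 each), and 6 hepatocyte genes summed to 109467 to 125127 CPM in KO and 117519 to 133115 CPM in WT.

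Antibody transcripts were a very small part of these libraries, and their amount overlapped between the groups. All immunoglobulin constant and variable segments together summed to 51.5, 35.2 and 45.3 CPM in KO replicates 1, 2 and 4, against 42.2, 68.2 and 39.7 CPM in WT replicates 1 to 3. WT replicate 2 was the highest and KO replicate 2 the lowest. In bulk RNA, fewer cells of a type and less RNA per cell cannot be told apart.

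Ighg2b, the constant gene of IgG2b, was the member with the smallest p-value. It is at chr12:113302965-113307933 on the minus strand. Its counts were 99, 116 and 138 in KO replicates 1, 2 and 4, against 14, 33 and 22 in WT replicates 1 to 3, which is 3.13, 3.59 and 4.73 CPM in KO and 0.455, 1.06 and 0.797 CPM in WT. Every KO library was above every WT library, and the lowest KO value was well above the highest WT value. Means were 3.82 ± 0.824 CPM in KO and 0.771 ± 0.304 CPM in WT (SD, n = 3 each), a ratio of 4.95. By edgeR it had a log2 fold change of 2.30 with a standard error (SE) of 0.36, an unadjusted p of 0.000175 and an adjusted p of 0.140 after Benjamini-Hochberg adjustment over 13773 genes. Of these genes, 16 had a smaller p and 25 (0.182%) had a larger log2 fold change. DESeq2 gave Ighg2b an adjusted p of 1.97e-06. With KO replicate 4 left out, Ighg2b had a log2 fold change of 2.12 (SE 0.38) and passed by edgeR at an adjusted p of 0.0497 and by DESeq2 at 0.000342.

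Ighg2c, the constant gene of IgG2c at chr12:113285325-113288932, was low in WT livers and varied little between KO livers. It had 98, 78 and 86 counts in KO replicates 1, 2 and 4, against 22, 0 and 2 counts in WT replicates 1 to 3. In CPM these were 3.10, 2.41 and 2.95 in KO, against 0.715, 0 and 0.0725 in WT. The groups did not overlap, and WT replicate 1 held 22 of the 24 WT counts. The log2 fold change was 3.39 (SE 0.87, edgeR adjusted p = 0.334, DESeq2 adjusted p = 0.463), or 3.36 without KO replicate 4 (edgeR adjusted p = 0.166). Over the pooled counts, the KO level was 10.5 times the WT level, with an exact 95% counting interval of 6.90 to 16.7. Leaving out WT replicate 1 left 2 WT counts and gave a ratio of 82.6 with an interval of 22.6 to 686, and leaving out WT replicate 2 gave 6.85 with an interval of 4.50 to 10.9. These pooled ratios were chosen after the data were seen, and their intervals cover counting error only.

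Ighg1, the constant gene of IgG1 at chr12:113325240-113330523, was higher in every KO library but mostly through 1 of them. Counts were 25, 14 and 90 in KO replicates 1, 2 and 4, against 7, 1 and 9 in WT replicates 1 to 3, or 1.44 ± 1.44 CPM in KO and 0.195 ± 0.150 CPM in WT (SD, n = 3 each). KO replicate 4 held most of the KO counts. The log2 fold change was 2.87 (SE 0.90, edgeR adjusted p = 0.518), and DESeq2 gave an adjusted p of 0.0362. Without KO replicate 4 it was 1.65 (SE 0.77, edgeR adjusted p = 0.443), and DESeq2 then gave an unadjusted p of 0.0946 and set no adjusted one.

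Ighg3, the constant gene of IgG3 at chr12:113356224-113361232 and the gamma gene nearest Ighm, had few counts in both groups. It had 10, 14 and 2 counts in KO replicates 1, 2 and 4, against 13, 9 and 20 in WT replicates 1 to 3. The groups overlapped, and the log2 fold change was -0.78 (SE 0.65, edgeR adjusted p = 0.902), or -0.33 without KO replicate 4. The standard error was close to the size of the difference.

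Ighm, the constant gene of IgM at chr12:113418558-113422730, had the opposite direction. Its CPM were 13.7, 5.97 and 5.97 in KO replicates 1, 2 and 4, against 16.1, 27.9 and 12.6 in WT replicates 1 to 3. KO replicate 1 lay above WT replicate 3, so the groups overlapped in that pair of libraries alone. Means were 8.54 ± 4.45 CPM in KO and 18.8 ± 8.01 CPM in WT (SD, n = 3 each). The log2 fold change was -1.14 (SE 0.39, edgeR unadjusted p = 0.0183 and adjusted p = 0.569), and the adjusted p by DESeq2 was 0.053. Without KO replicate 4 the log2 fold change was -0.94 (edgeR adjusted p = 0.387, DESeq2 adjusted p = 0.66).

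Igha, the constant gene of IgA, the class of gut and bile, lies at the far end of the cluster at chr12:113254830-113260236. It had 3.23, 4.14 and 5.35 CPM in KO replicates 1, 2 and 4, against 6.69, 5.69 and 3.99 CPM in WT replicates 1 to 3. The groups overlapped, with a log2 fold change of -0.37 (SE 0.27, edgeR adjusted p = 0.884), or -0.56 without KO replicate 4.

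**Figure D1:**
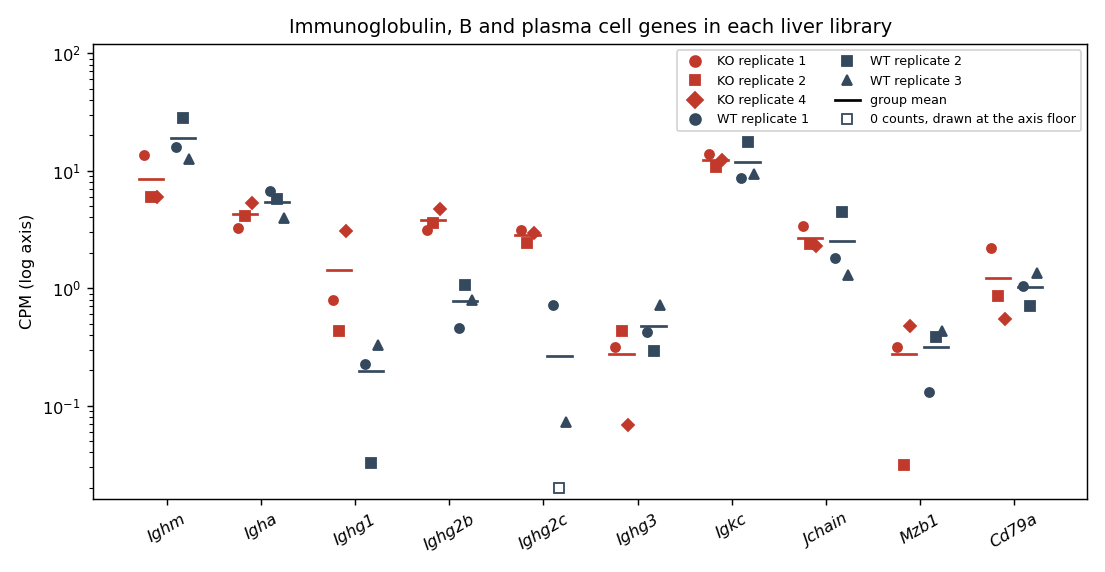
CPM on a log axis of each of the 10 genes in each library, with KO libraries (red) left of WT libraries (blue), a line at each group mean and an open symbol at the axis floor for a count of 0. The 3 KO libraries lie at 3.13 to 4.73 CPM for Ighg2b and 2.41 to 3.10 CPM for Ighg2c, above the 3 WT libraries, while Igkc and Jchain overlap.

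Igkc codes for the constant part of the kappa light chain, which pairs with heavy chains of any class and is used by most mouse antibodies. Its single exon is at chr6:70726435-70726966 on the plus strand. It had 14.0, 10.8 and 12.5 CPM in KO replicates 1, 2 and 4, against 8.67, 17.5 and 9.31 CPM in WT replicates 1 to 3. The WT range enclosed the KO range. Means were 12.4 ± 1.57 CPM in KO and 11.8 ± 4.91 CPM in WT (SD, n = 3 each), and the log2 fold change was 0.069 (SE 0.27, edgeR adjusted p = 0.985), or 0.071 without KO replicate 4.

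Jchain, at chr5:88519809-88527891, codes for the joining chain that links IgM and IgA into polymers. It had 3.36, 2.38 and 2.26 CPM in KO replicates 1, 2 and 4, against 1.82, 4.47 and 1.30 CPM in WT replicates 1 to 3. As for Igkc, the WT libraries spanned the KO libraries, with a log2 fold change of 0.072 (SE 0.45, edgeR adjusted p = 0.991), or 0.18 without KO replicate 4. Over the 6 libraries the log2 CPM of Jchain and Igkc had a Pearson correlation of 0.92, against 0.35 for Ighm with Igkc, 0.39 for Ighg2b and -0.16 for Ighg2c. The 6 points share library depth, and the correlations are a description only.

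Cd79a codes for a signaling chain of the B cell receptor and is made by B cells from early stages on. The gene lies at chr7:24897381-24902197, and 62 of its 1383 windows of 75 bases also occur in the gene model Gm32220. It had 2.22, 0.865 and 0.549 CPM in KO replicates 1, 2 and 4, against 1.04, 0.707 and 1.34 CPM in WT replicates 1 to 3. KO replicate 1 was the highest of all and KO replicate 4 the lowest, and the log2 fold change was 0.24 (SE 0.54, edgeR adjusted p = 0.966), or 0.59 with KO replicate 4 left out. Mzb1, a chaperone partner of the endoplasmic reticulum that helps assemble IgM, had 10, 1 and 14 counts in KO replicates 1, 2 and 4, against 4, 12 and 12 counts in WT replicates 1 to 3. Its log2 fold change was -0.21 (SE 0.80, edgeR adjusted p = 0.986), or -0.85 with KO replicate 4 left out. Of its 1209 windows of 75 bases, 622 also occur in the overlapping gene Spata24, so its values are uncertain.

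Over the 10 members, edgeR called 0 at an adjusted p under 0.05, against 0% of all 13773 genes tested, and 4 had an unadjusted p under 0.05, against 7.17% of all genes. Those 4 were Ighg2b, Ighg2c, Ighg1 and Ighm. DESeq2 called 2, Ighg2b and Ighg1, both higher in KO, where it called 1.06% of 14923 genes in either direction and 0.523% higher. Without KO replicate 4, edgeR called 1, Ighg2b, where it called 0.808% of all genes and 0.355% higher, and DESeq2 called 1, again Ighg2b, where it called 3.01% of genes and 1.29% higher. With no filter on low counts, edgeR called 2, Ighg2b and Ighg2c, where it called 0.577% of 23581 genes. For 3 members every KO library was above every WT library, which held for 6.02% of all genes, for 0 members was every KO library below, which held for 6.36%, and 7 overlapped. With KO replicate 4 left out, the KO libraries were above the WT libraries for 3 members, against 14.4% of all genes. The median log2 fold change of the members was 0.071, against -0.0012 over all genes. Ighg1 and Ighg2c passed the low-count filter through their KO libraries, since each exceeded the filter level of 0.324 CPM in 3 KO libraries and 1 WT library, so these counts over members say nothing beyond the genes themselves.

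**Figure D2:**
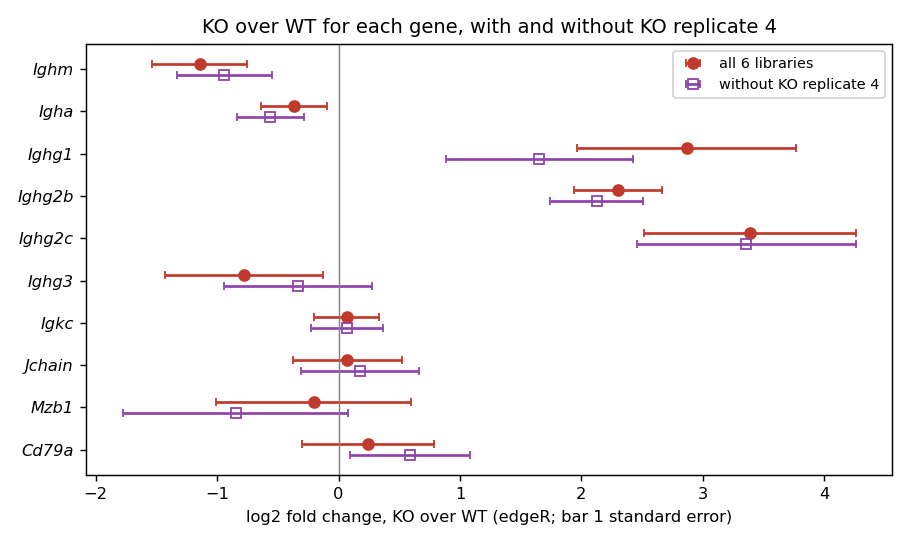
Log2 fold change, KO over WT, of the 10 genes by edgeR with all libraries and without KO replicate 4, with bars of 1 standard error. Ighg2c, Ighg1 and Ighg2b lie at 2.30 to 3.39 with all libraries, Ighm at -1.14, and the others between -0.78 and 0.24.

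Expressed as shares of all heavy chain constant counts, the IgG part was larger and the IgM part smaller in each KO liver. These shares do not depend on how much antibody RNA a library held. They sum to 100% in each library, so the larger IgG share and the smaller IgM share are not separate results. They rest on 875, 588 and 671 heavy chain counts in KO replicates 1, 2 and 4, and 796, 1138 and 585 in WT replicates 1 to 3. The 4 IgG genes together made up 26.5%, 37.8% and 47.1% in KO replicates 1, 2 and 4, against 7.04%, 3.78% and 9.06% in WT replicates 1 to 3. The lowest KO share, with a Wilson 95% interval of 23.7 to 29.5%, was above the highest WT share, with 6.99 to 11.7%. Means were 37.1 ± 10.3% in KO and 6.62 ± 2.66% in WT (SD, n = 3 each), and 32.1% in KO without replicate 4. The shares are given as a description with no test. An exact two-sided permutation test of 3 against 3 libraries cannot go below a p of 0.1.

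IgM made up 49.4%, 32.8% and 25.9% in KO replicates 1, 2 and 4, against 62.2%, 76.2% and 59.3% in WT replicates 1 to 3, and the groups did not overlap. Its KO mean was 36.0 ± 12.05% (SD, n = 3), or 41.1% without replicate 4. The IgA share was 19.2 ± 6.56% in KO and 20.1 ± 5.28% in WT, and the IgD share was 7.57 ± 4.38% in KO and 7.40 ± 4.70% in WT (SD, n = 3 each), both with overlap. Within IgG, the IgG2b share was 17.2 ± 5.12% in KO and 2.81 ± 1.004% in WT, and the IgG2c share was 12.4 ± 1.09% in KO and 1.04 ± 1.51% in WT. The IgG2c share ran from 11.2 to 13.3% over the 3 KO livers. The IgG1 share was 13.4% in KO replicate 4 and averaged 2.62% over the other KO livers, against 0.835% in WT. IgE was seen as 1 count, in KO replicate 1.

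**Figure D3:**
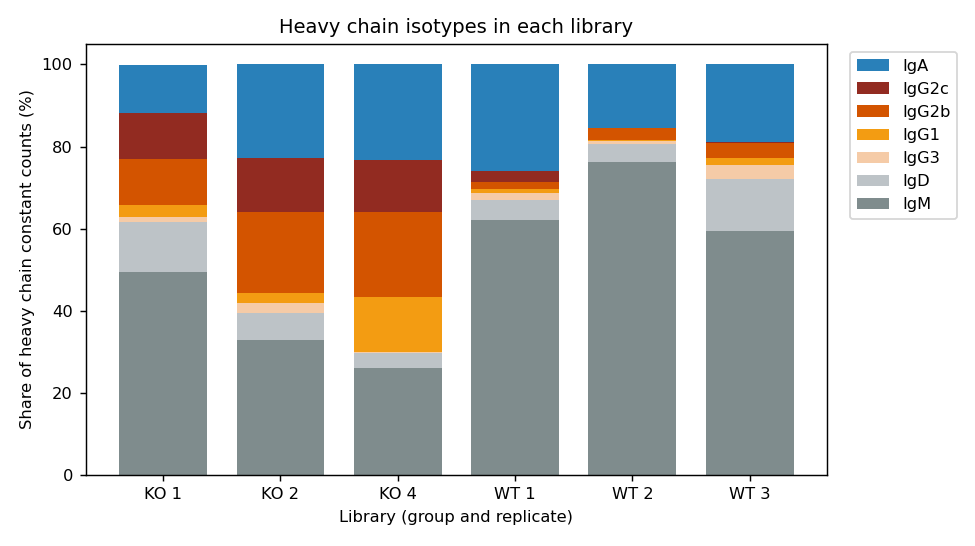
Share in percent of each antibody class in the summed heavy chain constant counts of each library, KO replicates left of WT replicates. The IgG classes together fill 26.5 to 47.1% of the KO bars and 3.78 to 9.06% of the WT bars, and IgM fills 25.9 to 49.4% of the KO bars and 59.3 to 76.2% of the WT bars.

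Set against the kappa chain in place of the heavy chains, the order was alike. For every 100 Igkc counts there were 31.2 ± 7.96 Ighg2b counts in KO and 6.62 ± 1.73 in WT, and 22.7 ± 0.831 Ighg2c counts in KO and 3.01 ± 4.55 in WT (SD, n = 3 each). Ighm had 67.0 ± 27.04 in KO and 160 ± 25.2 in WT on this scale, without overlap of the libraries. Kappa chains made up 91.1%, 93.1% and 90.1% of light chain constant counts in KO replicates 1, 2 and 4, against 83.7%, 88.6% and 86.8% in WT replicates 1 to 3. These ranges did not overlap, although the Wilson intervals of KO replicate 4 (86.8 to 92.6%) and WT replicate 2 (85.8 to 90.9%) did.

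Per kilobase of annotated exon, which allows levels of different genes to be compared, Igkc stood first in both groups, at 23.3 CPM per kilobase in KO and 22.2 in WT. Ighm came next, at 4.53 in KO and 9.99 in WT. In KO, Ighg2c followed at 2.13 CPM per kilobase, then Igha at 1.59 and Ighg2b at 1.43, whereas in WT Ighg2c had 0.198, Igha 2.04 and Ighg2b 0.288. Jchain lay at 1.06 in KO and 1.01 in WT. In WT the next place was held by Igha, with every gamma gene below Jchain and Cd79a. Over the KO libraries Ighg2c lay at 1.82 to 2.34, Igha at 1.21 to 2.01 and Ighg2b at 1.17 to 1.77 CPM per kilobase, so that Ighg2c was above Ighg2b without overlap, while Igha overlapped with both. The annotated exons of Ighg2c sum to 1326 bases and those of Ighg2b to 2678, so the levels of this pair of genes depend on the annotation.

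Along chromosome 12 the constant genes lie in a row, and class switching can join the variable segment to a gamma, epsilon or alpha gene behind Ighm. From the start of Ighm, Ighd begins 6.41 kb downstream, Ighg3 61.5 kb, Ighg1 92.2 kb, Ighg2b 115 kb, Ighg2c 134 kb, Ighe 149 kb and Igha 162 kb. The higher KO levels were those of Ighg1, Ighg2b and Ighg2c, which are neighbors in the middle of the cluster. Ighg3 on 1 side overlapped between the groups, Ighe on the other had 1 count in all, and Igha beyond it overlapped.

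**Figure D4:**
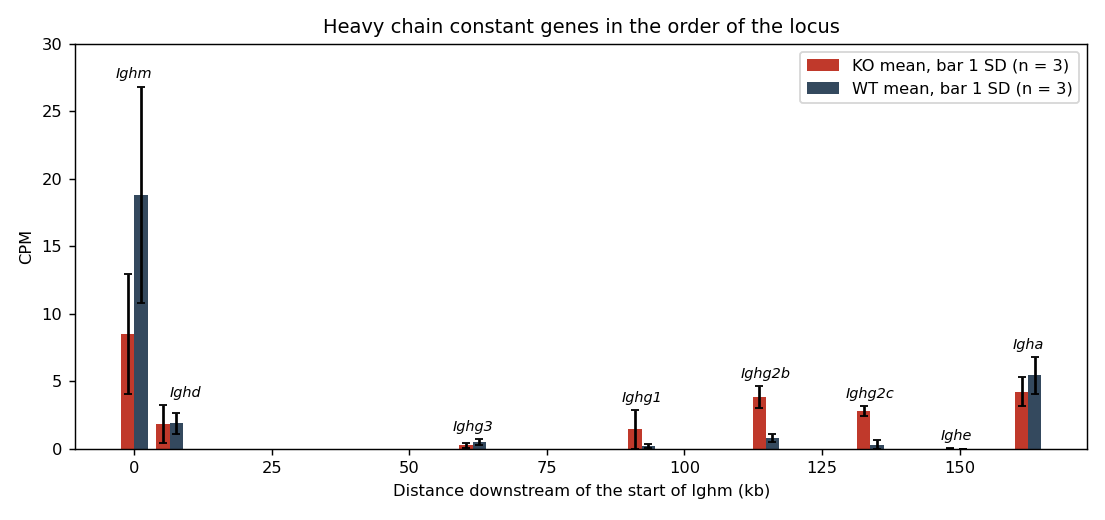
Mean CPM of each heavy chain constant gene, with bars of 1 SD (n = 3 libraries each, cut off at 0 where they would go below it), against its distance in kilobases from the start of Ighm, for KO and WT. KO means are above WT means for Ighg1, Ighg2b and Ighg2c, at 92.2 to 134 kb, and below them for Ighm at 0 kb.

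Variable segments, which form the antigen-binding part, were too thinly covered to be tested 1 by 1. Many antibody sequences can share a segment, so the number of segments seen does not measure how many sequences contribute reads. Of 218 V segments in the table, 140 had a count in any library and 6 in every library, 34 were seen in KO livers only and 19 in WT livers only. The 1 segment that passed the filter was Iglv1, a lambda chain segment, with 5, 10 and 5 counts in KO replicates 1, 2 and 4, against 14, 11 and 11 in WT replicates 1 to 3. Its log2 fold change was -0.90 (edgeR adjusted p = 0.801). V segment counts summed to 266, 173 and 240 over 75, 59 and 76 segments in KO, and to 183, 364 and 214 over 45, 64 and 64 segments in WT.

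No single V segment made up most of the reads in any liver. The leading segment held 7.52%, 5.78% and 6.25% of V counts in KO replicates 1, 2 and 4 (Igkv12-44, Igkv2-109 and Igkv5-43), against 13.7%, 15.1% and 5.61% in WT replicates 1 to 3 (Igkv3-10, Igkv3-2 and Igkv10-96). A different segment led in each of the 6 libraries. In WT replicate 2, Igkv3-2 had 55 counts and Ighv1-82 had 38, where the other 5 libraries had 0 to 5 and 0 to 6, and Ighv1-82 held 33.3% of the heavy chain V counts there (Wilson 95% interval 25.3 to 42.4%). WT replicate 2 was also the library with the highest Ighm and Igkc.

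Of 20 B cell genes, 16 were tested, with 1 log2 fold change above 0 and 15 below, a median of -0.43 (-0.24 without KO replicate 4), and 0 calls by edgeR or DESeq2 and 0 at an unadjusted p under 0.05. Their summed level was 16.3 to 29.2 CPM in KO and 24.4 to 33.9 CPM in WT. Ly6d and Bach2, the B cell genes with the most counts, had 2.90 ± 1.17 and 4.25 ± 0.922 CPM in KO, against 3.17 ± 1.34 and 4.81 ± 0.707 CPM in WT (SD, n = 3 each). Pax5 alone of those tested was lower in every KO library, which held for 6.36% of all genes. It had 0.982, 0.680 and 0.789 CPM in KO replicates 1, 2 and 4, against 1.62, 1.03 and 1.52 in WT replicates 1 to 3. Its log2 fold change was -0.76 (SE 0.35, edgeR adjusted p = 0.738). Of 18 plasma cell genes, 15 were tested, 7 above 0 and 8 below, with a median of -0.07, or 0.044 once KO replicate 4 was left out. With 0 calls by edgeR or DESeq2, 1 gene, Tent5c, had an unadjusted p under 0.05 by edgeR, against 7.17% of all genes. Tent5c had 17.5, 23.5 and 18.2 CPM in KO replicates 1, 2 and 4, against 11.7, 14.2 and 14.7 in WT replicates 1 to 3. Every KO library was above every WT library, which held for 6.02% of all genes (log2 fold change 0.54, SE 0.16, edgeR adjusted p = 0.468). Which liver cells the Tent5c RNA came from was not tested. The most abundant plasma cell genes, Xbp1, a transcription factor of secretory cells, and Sdc1, the syndecan CD138, are also made by hepatocytes, which limits this list in whole liver. Xbp1 had 219 ± 43.0 CPM in KO and 193 ± 30.2 CPM in WT, and Sdc1 had 309 ± 82.5 CPM in KO and 294 ± 8.80 CPM in WT (SD, n = 3 each).

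Of 8 germinal center genes, 5 were tested, 3 above 0 and 2 below, with 0 calls by edgeR or DESeq2, and Rgs13 had 0 counts in all 6 libraries. An unadjusted p under 0.05 by edgeR was seen for 2, against 7.17% of all genes. These 2 were Fas and Mybl1, in opposite directions. Over all genes, every KO library was below every WT library for 6.36% and above for 6.02%. Fas, a death receptor that many liver cells make, had 13.6, 18.2 and 11.6 CPM in KO replicates 1, 2 and 4, against 21.01, 19.5 and 19.3 CPM in WT replicates 1 to 3, lower in every KO library (log2 fold change -0.46, SE 0.17, edgeR adjusted p = 0.617). Mybl1, a transcription factor, had 0.728, 0.711 and 0.789 CPM in KO replicates 1, 2 and 4, against 0.325, 0.418 and 0.399 CPM in WT replicates 1 to 3, higher in every KO library (log2 fold change 0.96, SE 0.38, edgeR adjusted p = 0.669). Bcl6, a master regulator of germinal center B cells that hepatocytes also express, had 267, 265 and 960 counts in KO replicates 1, 2 and 4, against 276, 262 and 110 in WT replicates 1 to 3. The high value was that of the library with Y-linked reads, and the log2 fold change of 1.21 became 0.23 without it. Of the remaining immunoglobulin constant genes, 4 of 6 were tested, all with values below 0 (median -0.49) and none called by edgeR or DESeq2. Without KO replicate 4 the median was -0.25, with Ighd at 0.31 and Iglc2 at 0.074. Iglc1, a lambda light chain constant gene, had 0.423 ± 0.436 CPM in KO and 0.757 ± 0.381 CPM in WT, and Ighd had 1.83 ± 1.39 CPM in KO and 1.87 ± 0.753 CPM in WT (SD, n = 3 each).

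Genes that handle antibody in the liver and those that sustain B cells were also examined. Of 11 Fc receptor and transport genes, 9 were tested, 5 above 0 and 4 below, with 0 calls by edgeR and DESeq2. Fcgrt codes for the neonatal Fc receptor, which saves IgG and albumin from breakdown. It had 210, 224 and 228 CPM in KO replicates 1, 2 and 4, against 275, 271 and 277 CPM in WT replicates 1 to 3, without overlap (log2 fold change -0.31, SE 0.10, edgeR adjusted p = 0.529, DESeq2 adjusted p = 0.403). Pigr, the receptor that carries polymeric IgA and IgM across epithelia, had 1827 ± 349 CPM in KO and 1633 ± 198 CPM in WT (SD, n = 3 each). Of 15 survival and homing signals, 13 were found and 6 tested, 1 above 0 and 5 below, with 0 calls by edgeR or DESeq2. For 3 of them, Cxcl13, Cxcl12 and Ccl25, every KO library was below every WT library, which held for 6.36% of all genes. The gap was narrow for Cxcl12, with 445.9 CPM in KO replicate 4 and 446.8 CPM in WT replicate 2. It was also narrow for Ccl25, with 4.36 CPM in KO replicate 4 and 4.42 CPM in WT replicate 3. Cxcl13, a chemokine that draws B cells into follicles, had 2.98, 2.26 and 2.88 CPM in KO replicates 1, 2 and 4, against 3.35, 4.69 and 4.71 CPM in WT replicates 1 to 3 (log2 fold change -0.65, SE 0.24, edgeR adjusted p = 0.622). The 1 above 0 was Tnfsf13b, which codes for the B cell survival factor BAFF and is named after its values were seen. It had 0.823, 0.927 and 0.377 CPM in KO replicates 1, 2 and 4, against 0.227, 0.353 and 0.290 CPM in WT replicates 1 to 3 (log2 fold change 1.28, SE 0.49, edgeR adjusted p = 0.651), and passed the low-count filter in 3 KO libraries and 1 WT library. Cxcl12, which holds plasma cells in their niches, had 415 ± 30.6 CPM in KO and 457 ± 10.1 CPM in WT, and Tgfb1, a growth factor that can direct switching to IgA, had 10.2 ± 2.31 CPM in KO and 10.7 ± 2.13 CPM in WT (SD, n = 3 each).

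Markers of other leukocytes were compared beside these results. Of 8 neutrophil genes, 3 were tested with a median log2 fold change of 1.39, and their sum was 4.85 to 15.7 CPM in KO and 2.57 to 3.95 CPM in WT. S100a9 had 230, 86 and 85 counts in KO replicates 1, 2 and 4, against 32, 35 and 53 counts in WT replicates 1 to 3 (edgeR adjusted p = 0.414, DESeq2 adjusted p = 0.0145). Ly6g, a defining surface marker of mouse neutrophils, had 2, 4 and 0 counts in KO and 0 counts in each WT library. S100a8, the partner protein of S100a9, had 179, 49 and 54 counts in KO and 46, 18 and 38 counts in WT. Ngp, the other gene tested, had 28, 0 and 2 counts in KO and 12, 13 and 8 counts in WT. The sum was higher in each KO library, as Ighg1, Ighg2b and Ighg2c were, but without S100a8 and S100a9 it was 0.514 to 2.79 CPM in KO and 0.652 to 0.868 CPM in WT, with overlap. That sum was added after the data were seen, and the part of these cells in the result was not tested. The sum of 13 T and NK cell genes was 5.97 to 17.3 CPM in KO and 10.2 to 11.4 CPM in WT, and that of 8 Kupffer cell genes was 252 to 461 CPM in KO and 255 to 532 CPM in WT, both with overlap. Of the T and NK cell genes, 12 were tested, with 0 calls by edgeR or DESeq2. Trbc1 alone had an unadjusted p under 0.05 by edgeR, against 7.17% of all genes. It had 11, 8 and 6 counts in KO replicates 1, 2 and 4, against 22, 25 and 18 in WT replicates 1 to 3. Every KO library was below every WT library, which held for 6.36% of all genes. Its log2 fold change was -1.42 (SE 0.42, edgeR adjusted p = 0.476). Trbc1 passed the low-count filter in 1 KO library and 3 WT libraries. Lck and Trbc2, of T cells, had 1.53 ± 1.22 and 1.05 ± 1.01 CPM in KO, against 1.49 ± 0.354 and 1.33 ± 0.397 CPM in WT. Clec4f and Cd5l, of Kupffer cells, had 94.9 ± 26.5 and 97.0 ± 33.7 CPM in KO, against 113 ± 36.2 and 101 ± 50.7 CPM in WT (SD, n = 3 each). Red blood cell genes summed to 307 to 382 CPM in KO and 299 to 338 CPM in WT, with Hbb-bs and Hba-a1 at 158 ± 45.3 and 63.0 ± 16.4 CPM in KO, against 165 ± 9.43 and 59.1 ± 5.39 CPM in WT (SD, n = 3 each). Pancreatic acinar genes summed to 6.78 to 13.3 CPM in KO and 6.01 to 10.9 CPM in WT, most of it from Cela1 at 8.69 ± 3.73 CPM in KO and 7.42 ± 2.49 CPM in WT (SD, n = 3 each). Of 8 gut epithelium genes, 4 had 0 counts in all libraries, and the sum was 63.8 to 66.1 CPM in KO and 73.5 to 97.6 CPM in WT, most of it from Fabp2 at 51.6 ± 1.018 CPM in KO and 73.1 ± 15.5 CPM in WT, next to Lgals4 at 12.5 ± 2.25 CPM in KO and 12.9 ± 3.57 CPM in WT (SD, n = 3 each). The gut sums did not overlap between the groups. Fabp2 was lower in every KO library, which held for 6.36% of all genes. Its log2 fold change was -0.50 (SE 0.15, edgeR adjusted p = 0.518).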

How the data were processed

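RNA-seq of liver was done in 1 library per mouse, for 3 p75NTR KO and 3 WT mice. The authors deposited a table of raw counts per gene, which was not normalized. According to their methods and processing notes, libraries were directional and read as single-end reads of 75 bases, converted with bcl2fastq, trimmed with Trimmomatic, aligned with STAR 2.5.0c to GRCm38.p5 and counted with featureCounts. The strand setting and the treatment of reads with several alignments were not given in the sources used here, and overlapping genes may share reads. Symbols and positions came from GENCODE M21 by Ensembl ID, which 49412 of 49671 IDs matched, and 0 rows named no gene.

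Counts were compared in edgeR 4.0.16 (R 4.3.3) over all genes kept by filterByExpr with a minimum count of 10 (13773 genes), with TMM scaling, glmQLFit and glmQLFTest and Benjamini-Hochberg adjustment. A call is an adjusted p under 0.05. DESeq2 1.42.0 and limma-voom (limma 3.58.1), other scalings and filters, leaving out each library and a replicate block were alternatives. CPM are counts over TMM-scaled library size, and standard errors are those of log2 fold changes. The scripts were tested on simulated data. Every pair of libraries differed by more than sampling noise, at a chi-square of 15.8 to 161 per degree of freedom. Shares carry Wilson 95% intervals for counting error only. The 10 members and all gene lists were chosen with earlier results of these data known. All members are named, and in each list at most 4 called genes or, where none was called, the 2 genes of highest mean count. Pax5, Tent5c, Rgs13, Mybl1, Iglc2, Tnfsf13b, Cxcl13, Ccl25, Trbc1, Ngp and Ly6g were named after their values were seen. A gene of the germinal center list is not reported here. V segments are named where they led a library or were tested.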

Additional observations from a re-analysis of the deposited data

How the results depend on the processing

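Counts of calls depended on the test and on KO replicate 4, while Ighg1, Ighg2b and Ighg2c kept their direction in every alternative that gave a value. With edgeR, 0 genes were called in either direction, 0 of the 10 members among them. DESeq2 gave 78 genes higher and 80 lower (2 members), limma-voom 1 and 4, edgeR without a low-count filter 69 and 67 (2 members, Ighg2b at an adjusted p of 0.0016 and Ighg2c at 0.0117), edgeR with robust dispersions 3 and 6, DESeq2 with KO replicate 4 left out 173 and 229 (1 member), and edgeR on only the libraries numbered 1 and 2 called 131 and 157 (1 member, Ighg2b at 0.0465). Leaving out each library in turn gave 0 to 50 genes higher, 0 to 64 lower and 0 to 1 members, and all of these calls came without KO replicate 4.

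Replicate numbers 1 and 2 are used for KO and for WT libraries, without a label that pairs them. Same-numbered libraries correlated at -0.12 and 0.03 in their deviations from the group means, and differently numbered ones at -0.15 to 0.19. With 3 libraries per group these values cannot tell whether same-numbered libraries were paired or shared a batch. A replicate block gave 220 genes higher and 248 lower (3.4% of all genes) and 1 member, Ighg2b (log2 fold change 2.21, adjusted p = 0.0173 by edgeR). In this fit KO replicate 4 and WT replicate 3 each form a block alone. The KO effect therefore rests on the libraries numbered 1 and 2, and the fit is not a separate check beside that on those libraries alone. With the block, Ighg3 had 0.080, Igkc -0.014 and Jchain -0.036.

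On only the libraries numbered 1 and 2 these 3 genes had 0.079, -0.076 and -0.13. Leaving out each library in turn gave log2 fold changes of -0.11 to 0.46 for Igkc, -0.23 to 0.77 for Jchain, -0.85 to 0.33 for Mzb1 and -0.52 to 0.59 for Cd79a, so these 4 and Ighg3 changed direction with the processing. Over the same fits Ighg2b kept 2.04 to 2.61, Ighg2c 2.80 to 6.21 (the highest without WT replicate 1), Ighg1 1.65 to 3.43 and Ighm -1.65 to -0.75. The difference in IgG2c share was 11.4 percentage points, and 17.6 per kilobase of exon, since the annotated Ighg2c is short. A minimum of 10 counts in every library removed Ighg1, Ighg2c, Ighg3 and Mzb1, which then have no value. Depth limits the gamma genes in WT, which rest on 0 to 33 counts each.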

Other observations

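The genes whose level followed Igkc most closely over the 6 libraries, immunoglobulin genes aside, were 2610021A01Rik (Pearson correlation of log2 CPM 0.98), Ufd1 (0.96), Rnmt (0.96), Mmgt1 (0.95) and Inka1 (0.94), out of 13758 genes compared. Of all these genes, 3 exceeded 0.95. With 6 libraries and this many genes, such values are a description. In 2610021A01Rik the KO libraries had 6.87, 6.21 and 6.55 CPM and the WT libraries 5.36, 8.03 and 5.94 CPM, with WT replicate 2 highest, as for Igkc.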
